A study of Mus musculus with 54 samples.

Results

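Diabetic Akita mice with intact Sglt1 on vehicle were compared with nondiabetic wild-type mice on vehicle, using RNA from the late proximal tubule, 6 libraries against 6. The 12 libraries were taken by their genotype and treatment labels from 52 libraries with values, which fall into 9 groups. All animals were male DBA mice of 14 weeks, and both groups received vehicle for 2 weeks and carried Sglt1+/+. The diabetic group was Ins2 Akita/+, and the nondiabetic group was Ins2+/+. The other 7 groups were Sglt1-/- mice of both kinds on vehicle, mice of all 4 genotypes on dapagliflozin at 10 mg/kg diet, and wild-type Akita mice on semaglutide at 3 nmol/kg per day. Tubules that bound the lectin LTL and lacked SGLT2 were cut out by laser, and their total RNA was sequenced, with each sample pooling many tubules. The labels do not say whether each sample came from its own animal, so the tests measure the spread between samples.

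The proximal tubule recovers sugars, amino acids and filtered proteins from the primary urine, and its last segment, S3, holds Sglt1 (Slc5a1), the carrier that takes up the glucose left by Sglt2 upstream. The Akita allele of the insulin gene Ins2 makes a misfolded insulin that damages the beta cell, so the mice lack insulin and excrete much glucose. The tubule cell also makes and burns fructose, makes glucose, and handles drugs and plasma carrier proteins, and it can activate the stress factor p53, which halts division or starts repair.

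Levels are in TPM, a unit that corrects read counts for the length of each gene and the size of each library. The libraries here did not share 1 sum of TPM, as given below. The number of reads behind a value is unknown. Differences are given as log2 changes, Akita minus nondiabetic, on the log2(TPM + 1) scale, which understates the change of genes near 0, while folds are ratios of mean TPM. A gene passed at an adjusted p under 0.05 over 15424 tested genes (limma, Benjamini-Hochberg), and adjusted p in the text are of this kind.

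Several results below concern p53, and 3 sequences are given with them. The first is the microRNA miR-34a, a textbook p53 target whose gene overlaps 1 transcript that rose here. It is shown with its seed, bases 2 to 8, in capitals, and the seed is the stretch that pairs with target messages. The others are the 250 bases before the start sites of Cdkn1a and Ugt1a10. Their promoters held the letters CATG, any 6 bases and CATG again, shown in capitals. This pattern is looser than the sequence that p53 is known to bind, because the 6 bases between were left free. The sequences are those of RefSeq on GRCm38.p6.
mmu-miR-34a-5p: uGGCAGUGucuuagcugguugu
Cdkn1a, chr17:29090729-29090978, plus strand: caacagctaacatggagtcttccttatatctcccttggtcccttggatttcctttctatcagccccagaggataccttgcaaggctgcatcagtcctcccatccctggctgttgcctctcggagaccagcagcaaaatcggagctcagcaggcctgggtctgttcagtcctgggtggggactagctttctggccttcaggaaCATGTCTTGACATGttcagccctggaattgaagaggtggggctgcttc
Ugt1a10, chr1:88055161-88055410, plus strand: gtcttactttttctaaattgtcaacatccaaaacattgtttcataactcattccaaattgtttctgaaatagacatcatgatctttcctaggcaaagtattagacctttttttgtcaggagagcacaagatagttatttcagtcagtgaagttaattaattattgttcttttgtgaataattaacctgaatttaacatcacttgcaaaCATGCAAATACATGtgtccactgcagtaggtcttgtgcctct
The motif began 48 bases before the start site of Cdkn1a and 42 bases before that of Ugt1a10, and it reads the same on both strands. Of 32851 promoters of 300 bases in the RefSeq table, 234 (0.712%) held it. Of the genes that passed, 36 of 60 had a promoter in the table. The motif was in 2 of 45 promoters (4.44%) of higher genes, those of Cdkn1a and Ugt1a10, and in 0 of 4 promoters of lower genes. In the list of p53 targets used below it was in 1 of 30 promoters (3.33%), again that of Cdkn1a. A match of letters describes the sequence, and binding of p53 was not tested.

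Diabetes changed 60 of the 15424 genes (0.389%). In the Akita libraries 52 were higher (0.337%) and 8 lower (0.0519%), and 1575 genes (10.2%) had an unadjusted p under 0.05, 1019 higher (6.61%) and 556 lower (3.6%). These shares of all tested genes are the measure for the list counts below. Leaving out Akita replicate 4 gave 39 genes and leaving out nondiabetic replicate 5 gave 148, which held all of the 60. Of the 60, 45 code for proteins. Of the 52 higher genes, 37 had all 6 Akita libraries above all 6 nondiabetic ones, as did 88 genes (0.571%) among all tested. Of the 8 lower genes, 5 did not overlap in the other direction, against 25 (0.162%) of all. The median log2 change of all tested genes was 0.05, and 56.4% of them were above 0. Once the mitochondrial ribosomal RNA was left out and the libraries were rescaled to 1 common sum, that median was -0.18. In that setting 36 genes passed, 22 higher and 14 lower, of which 30 were among the 60. This rescaling replaced the deposited scale, on which the median TPM of tested genes was 13.17 to 13.97 in every library. All 60 genes kept their direction after the rescaling. Among the calls this rescaling ended were those of Mdm2 (adjusted p 0.162), Ephx1 (0.0599), Folh1 (0.0686) and Hao2 (0.0615).

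The S3 markers Slc7a13, an amino acid carrier, and Cyp7b1, a hydroxylase of sterols, were at 370 to 1529 and 129 to 752 TPM in nondiabetic libraries and at 720 to 1241 and 315 to 470 TPM in Akita libraries. None of the 8 S3 markers passed in limma, and 0 had an unadjusted p under 0.05. Slc5a2, whose protein SGLT2 the chosen tubules were to lack, was at 4.55 to 161 TPM and 7.25 to 66.2 TPM. Markers of other cells were present and mostly lower in Akita libraries. The summed level of 14 macrophage and dendritic cell markers was 657 ± 122 TPM (SD, n = 6; 501 to 829) in nondiabetic and 445 ± 54.9 TPM (SD, n = 6; 385 to 520) in Akita libraries. This difference had an exact 2-sided permutation p of 0.00649, or 0.0714 adjusted over 22 library measures, where the smallest p possible was 0.00216. The 12 endothelial markers summed to 272 to 525 TPM and 242 to 381 TPM. Stromal markers summed to 86.8 to 601 TPM and 99.9 to 201 TPM, and podocyte markers to 14.995 to 103 TPM and 13.7 to 36.9 TPM. No tested marker of another cell type or segment passed in limma, and 3 endothelial, 3 macrophage, 2 stromal, 1 podocyte and 1 intercalated cell marker had an unadjusted p under 0.05. Without nondiabetic replicates 1 and 2, the stromal list's median log2 change went from -0.32 to 0.30, and that of the S3 list from -0.06 to -0.42. Of the lymphocyte and neutrophil markers, only Cd3e and Cd4 were analysed here. Both were too low to be tested and together summed to 0.101 to 7.13 TPM and 0.188 to 2.72 TPM. The sum of TPM over a library was 1422237 ± 323330 in nondiabetic and 1857902 ± 250664 in Akita libraries (SD, n = 6 each; exact permutation p 0.0325, adjusted 0.238). Mitochondrial rRNA made up 26.7 to 41.0% and 32.2 to 45.8% of it. Nondiabetic replicate 2 had the highest score of other cells in its group and the lowest S3 sum, 3239 TPM. It was the lowest nondiabetic library for 25 of the 52 higher genes. The part of these measures in the gene results was not tested beyond the covariates and left-out libraries named below.

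**Figure D1:**
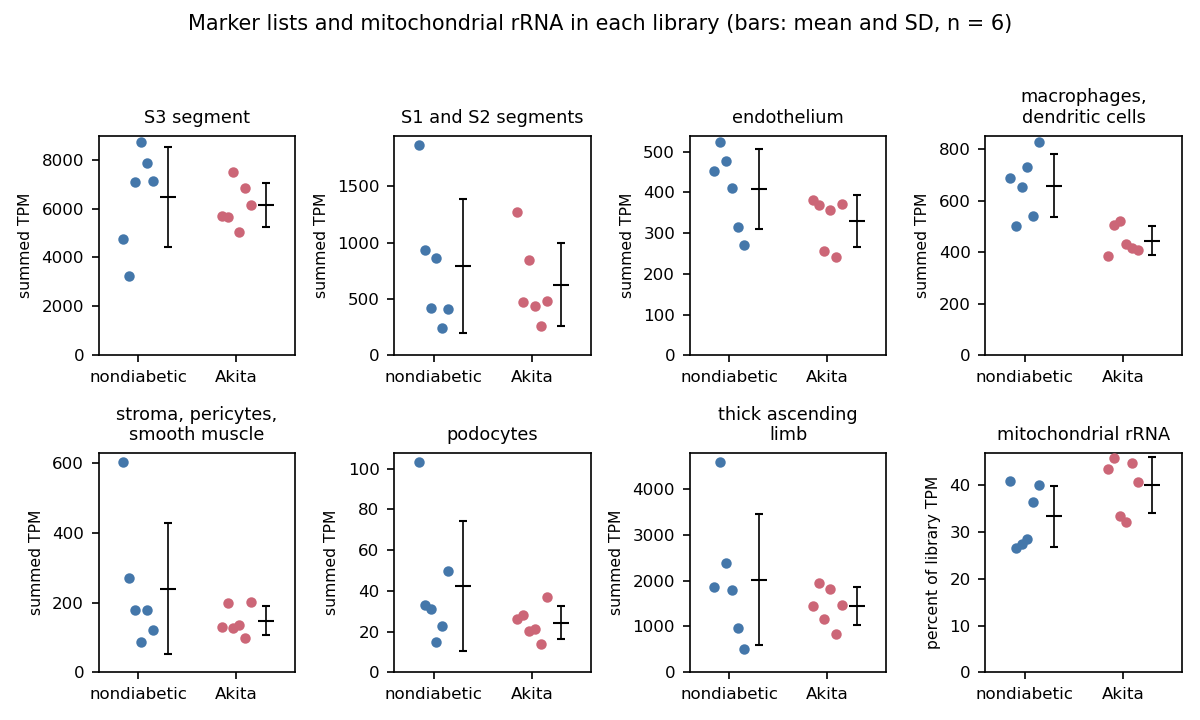
Summed TPM of the S3 markers, of markers of 6 other cell types or segments, and the percent of TPM from mitochondrial rRNA, for each of the 6 nondiabetic (blue) and 6 Akita (red) libraries, with mean and SD. Macrophage and dendritic cell markers lay at 501 to 829 TPM in nondiabetic and 385 to 520 TPM in Akita libraries, and the sum of S3 markers overlapped between the groups.

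Of 26 tested p53 targets, 5 rose and 0 fell, with a median log2 change of 0.29 over the list against 0.05 over all genes. Over all tested genes 0.337% rose and 0.0519% fell. Trp53, which encodes p53 itself, was at 11.9 to 22.6 TPM in nondiabetic and 11.8 to 20.8 TPM in Akita libraries (log2 -0.10, SE 0.22). The list was put together with earlier results of these samples known, so its count is no independent evidence of its direction.

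Mdm2, the ubiquitin ligase that degrades p53, was at 43.5 to 53.1 TPM (median 46.7) in nondiabetic and at 72.8 to 108 TPM (median 86.3) in Akita libraries. The nondiabetic libraries lay close together, and the lowest Akita library stood well above them. Its mean rose 1.84-fold (log2 0.85, SE 0.15, adjusted p 0.000727). Ccng1, cyclin G1, ranged from 19.97 to 54.2 TPM (median 30.5) in nondiabetic and from 66.95 to 113 TPM (median 89.9) in Akita libraries, again with no overlap. It rose 2.71-fold (log2 1.47, SE 0.24). Phlda3, an inhibitor of the kinase Akt, was between 0.475 and 2.96 TPM and between 5.53 and 12.6 TPM (log2 1.82, SE 0.39, adjusted p 0.0121). With the sum of TPM as covariate its adjusted p was 0.210, and without nondiabetic replicates 1 and 2 it was 0.0504. Zmat3, an RNA-binding p53 target, was at 4.97 to 9.15 TPM against 10.4 to 14.3 TPM (log2 0.67, SE 0.15, adjusted p 0.0193). Leaving out any of 4 single libraries ended its call, with a p of 0.0952 without nondiabetic replicate 2, as did 6 other settings, with 0.335 when the compared libraries were fitted alone. Cdkn1a, the cyclin-dependent kinase inhibitor p21 whose promoter is shown above, was at 0.188 to 2.05 TPM (median 0.685) and at 1.80 to 9.71 TPM (median 4.09). Its groups overlapped, with Akita replicates 3 and 6 inside the nondiabetic range. It passed with all libraries (log2 1.46, SE 0.34, adjusted p 0.0253), and leaving out any of 6 single libraries ended the call. The highest p was 0.142 without Akita replicate 5.

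Of the targets that did not pass, Aen, a nuclease, was at log2 0.80 (adjusted p 0.0972). Ei24 had no overlap at 33.8 to 60.4 TPM against 62.7 to 93.0 TPM and log2 0.64 (SE 0.18). The pro-apoptotic members Bax (log2 0.68), Bbc3 (log2 -0.29) and Pmaip1 (log2 0.18) did not pass, nor did the DNA repair genes Xpc (log2 0.26), Ddb2 (log2 -0.27), Polk (log2 0.17) and Rrm2b (log2 0.10). The number of list members that rose was 3 to 7 when single libraries were left out and 3 without nondiabetic replicates 1 and 2. It was 2 after removal of mitochondrial rRNA and rescaling, where the list's median was 0.07 against -0.18 over all genes.

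The gene of miR-34a lay in a short stretch of chromosome 4 in which 3 annotated genes on the same strand rose. Gm37795 (GRCm38, chromosome 4, 150068539 to 150070997) is an unspliced record whose start overlaps the miR-34a hairpin (150068454 to 150068555). It was at 0.168 to 1.02 TPM in nondiabetic and at 2.16 to 5.23 TPM in Akita libraries (log2 1.68, SE 0.28, adjusted p 0.000525). Gm13067, a long noncoding RNA ending 11478 bases before the hairpin, was blank (read as 0 TPM) in all 6 nondiabetic wild-type vehicle libraries. In Akita replicates 1 to 6 it was at 10.4, 1.74, 9.82, 14.9, 4.05 and 7.94 TPM (log2 2.98, SE 0.54, adjusted p 0.00114). Both records were without overlap between the wild-type vehicle groups. Gm13067 had nondiabetic means of 3.40 TPM (wild type) and 2.73 TPM (knockout) on dapagliflozin, and 0.320 TPM in the knockout on vehicle. Its log2 change with diabetes was 2.115 in the knockout on vehicle, and 1.27 (wild type) and -0.62 (knockout) on dapagliflozin. Slc2a5, the fructose carrier GLUT5, starts 48286 bases beyond Gm37795 and passed narrowly, as given with the sugar genes. H6pd, 59516 bases from Gm37795 on the other strand, was at log2 -0.04 (SE 0.15, adjusted p 0.953). The mature microRNA itself was not analysed here.

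**Figure D2:**
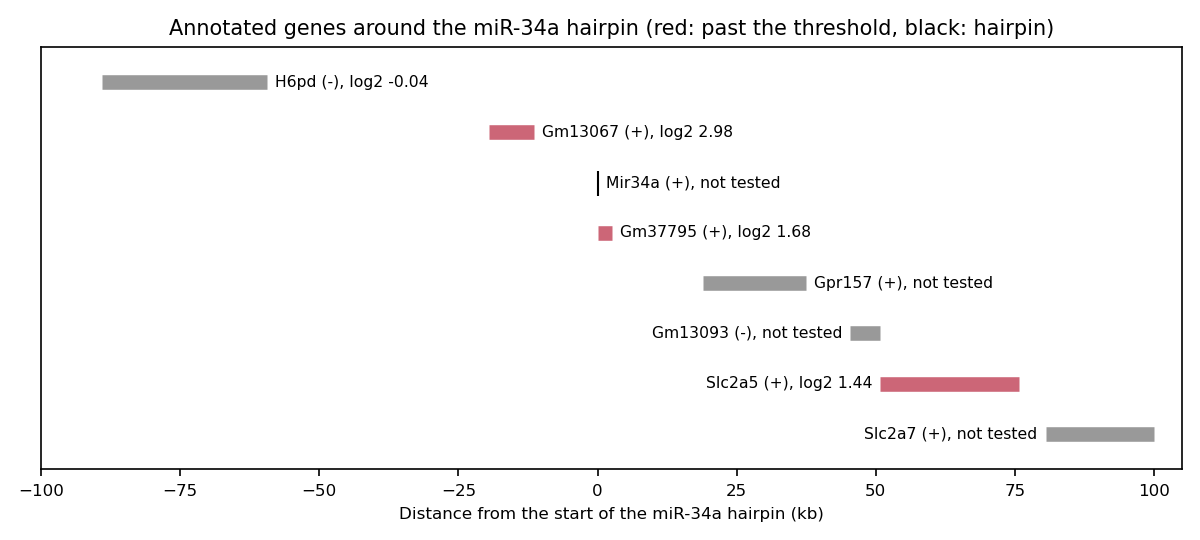
Annotated genes around the miR-34a hairpin, drawn to scale as distance in kb from the start of the hairpin, with strand in parentheses and the log2 change with diabetes where the gene was tested. The 3 genes past the threshold (red) were Gm13067 (log2 2.98), Gm37795 (log2 1.68) and Slc2a5 (log2 1.44).

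Fructose enters the cell by Slc2a5 and Slc5a10 or is made from glucose by Akr1b3 and Sord, then is phosphorylated by Khk and its fragments are passed to glycolysis by Tkfc. Of 9 tested genes of fructose and polyol metabolism, 3 rose, Tkfc and Slc2a5 among them, and 0 fell, with a median log2 change of 0.59 against 0.05 over all genes. Over all tested genes 0.337% rose. Of 13 sugar carriers, 2 rose, Slc5a10 and Slc2a5, and 6 had values below 0.

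Slc5a10, a sodium-coupled carrier of mannose and fructose, was at 231 to 788 TPM (median 413) in nondiabetic and at 849 to 1254 TPM (median 1080) in Akita libraries. Every Akita library was above every nondiabetic one. It rose 2.43-fold (log2 1.37, SE 0.28, adjusted p 0.00544). Slc2a5 was at 88.8 to 486 TPM (median 168) and 399 to 681 TPM (median 552), with 4 Akita libraries above the nondiabetic range (log2 1.44, SE 0.35, adjusted p 0.0453). Tkfc, which phosphorylates glyceraldehyde, was at 150 to 399 TPM and 350 to 536 TPM (log2 0.83, adjusted p 0.0221).

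Further members had values in the same direction without passing. Khk, ketohexokinase, was at 196 to 535 TPM and 449 to 817 TPM (log2 0.88, SE 0.23, adjusted p 0.0671). Sord, sorbitol dehydrogenase, was at 191 to 444.1 TPM and 444.5 to 558 TPM, so its groups just failed to meet (log2 0.59, adjusted p 0.0962). Akr1b3, aldose reductase, was at log2 -0.02 (SE 0.25). Slc2a2, GLUT2, was at log2 1.23 (SE 0.32, adjusted p 0.0700) and Slc5a1 at log2 0.71 (SE 0.20, adjusted p 0.104). Slc5a1 passed with a pseudocount of 5 TPM (adjusted p 0.0277) and without nondiabetic replicate 5 (0.0483), and in no other alternative. Slc5a2 was at log2 -0.36 (SE 0.86). Leaving out any of 5 single libraries ended the call of Tkfc, and leaving out any of 8 ended that of Slc2a5. Another 6 settings ended each of these calls. The adjusted p of both was highest without nondiabetic replicate 2, the compared library lowest in S3 markers, at 0.132 for Tkfc and 0.179 for Slc2a5. Without nondiabetic replicates 1 and 2 no gene of the fructose list passed, and its median log2 change was 0.42. None passed after removal of mitochondrial rRNA and rescaling either (median 0.34). Slc5a10 passed whichever single library was left out, with a highest p of 0.0365, and was at 0.0752 without both of these.

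Glycolysis and its regulators changed at few genes. Of 16 glycolytic genes 2 rose, Pklr among them, against 0.337% of all tested genes. The list median was 0.30. Pklr, the pyruvate kinase of liver and kidney and a target of the sugar-sensing factor ChREBP, was at 13.1 to 122 TPM and 69.2 to 162 TPM, with 3 Akita libraries above the nondiabetic range (log2 1.37, SE 0.31, adjusted p 0.0202). Leaving out any of 5 single libraries ended its call, with a p of 0.132 without nondiabetic replicate 2. It was the only one of 15 ChREBP and MondoA targets that passed. Txnip, which limits glucose uptake, was at log2 -0.30 (SE 0.22), and Mlxipl, ChREBP itself, at log2 0.24 (SE 0.20). Acly, which makes cytosolic acetyl-CoA, had no overlap at 65.2 to 127 TPM against 131 to 173 TPM (log2 0.69, adjusted p 0.0758). None of 8 gluconeogenic genes passed (limma; 2 at an unadjusted p under 0.05). Their median was -0.04, and Pck1, which forms phosphoenolpyruvate, was at log2 -0.44 (SE 0.31) and Fbp1, fructose bisphosphatase, at log2 0.45 (SE 0.20).

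Gpd2, the mitochondrial glycerol-3-phosphate dehydrogenase that passes cytosolic electrons to the respiratory chain, stood apart among the shuttle genes. It was at 20.9 to 52.97 TPM (median 42.2) in nondiabetic and at 98.2 to 165 TPM (median 135) in Akita libraries. The lowest Akita library was far above the highest nondiabetic one. It rose 3.29-fold (log2 1.73, SE 0.24, adjusted p 2.00e-05). Its cytosolic partner Gpd1 was at log2 0.65 (SE 0.21, adjusted p 0.192), and glycerol kinase, Gk, at log2 0.25 (SE 0.22). Of 11 genes of the glycerol-phosphate and malate-aspartate shuttles, Gpd2 was the 1 that passed, and 10 had a log2 change above 0. None of 16 citric acid cycle genes passed, and none had an unadjusted p under 0.05 (limma). The 13 mitochondrially encoded messages all had values above 0 with a median of 0.56, and none passed. Here 1 had an unadjusted p under 0.05.

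The plasma carriers Afm and Gc, both of the albumin family, rose, and the receptors that take up filtered carriers had values near 0. Afm, afamin, which binds vitamin E, was at 15.97 to 33.1 TPM (median 21.9) in nondiabetic and at 44.8 to 78.7 TPM (median 55.4) in Akita libraries. It rose 2.59-fold without overlap (log2 1.35, SE 0.19, adjusted p 3.35e-05). Gc, the vitamin D-binding protein, was at 0.202 to 3.23 TPM and 4.63 to 69.6 TPM. Its Akita libraries were widely spread, with replicates 1 and 5 at 69.6 and 53.5 TPM and replicates 3 and 6 near 5 TPM, all above the nondiabetic range (log2 3.22, SE 0.56, adjusted p 0.000691). Both lie on chromosome 5 of GRCm38, Gc at 89417522 to 89457898 and Afm at 90518932 to 90553543. Alb, albumin, was at means of 0.906 and 2.55 TPM (log2 1.00, SE 0.35, adjusted p 0.252). Lrp2, megalin, was at log2 0.06 (SE 0.25), Cubn, cubilin, at log2 0.07 (SE 0.23) and their partner Amn at log2 0.05 (SE 0.22). Of the 12 genes of this list 2 rose and 10 did not pass.

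Among conjugating enzymes, Ugt1a10 went from near 0 to a clear level. This glucuronosyltransferase makes lipophilic compounds soluble, and its promoter is shown above. It was blank (read as 0 TPM) in 5 nondiabetic libraries and at 2.42 TPM in replicate 4. In Akita replicates 1 to 6 it was at 46.8, 10.9, 4.86, 10.8, 21.6 and 6.64 TPM. All 6 lay above the nondiabetic range (log2 3.49, SE 0.53, adjusted p 9.77e-05). The gene shares exons with its neighbours of the Ugt1a cluster, of which Ugt1a6a, Ugt1a6b and Ugt1a7c were at log2 0.36, 0.82 and 0.92 and did not pass, so the split of reads among them is uncertain. Of 18 such genes 2 passed, Ugt1a10 among them, with a list median of 0.35. Sult1c2, a sulfotransferase, and Fmo2 did not pass over all genes, though their groups did not overlap (log2 0.82 and 0.78, adjusted p 0.0700 and 0.120).

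Of 22 targets of NRF2, the factor of the antioxidant response, 2 rose, 0 fell, and 4 had no overlap. Over all tested genes 0.337% rose, 0.0519% fell and 0.571% were higher without overlap. Ephx1, the microsomal epoxide hydrolase, was at 9.42 to 33.0 TPM (median 15.1) in nondiabetic and 41.0 to 72.8 TPM (median 59.4) in Akita libraries. It rose 3.24-fold (log2 1.73, SE 0.33, adjusted p 0.00305). Gsta3, a glutathione transferase, was at 5.55 to 21.3 TPM and 21.4 to 38.8 TPM (log2 1.19, adjusted p 0.0325), and leaving out any of 8 single libraries ended its call. Classic members did not pass, among them Nqo1 (log2 0.41), Hmox1 (log2 0.88), Gclc (log2 0.18) and Srxn1 (log2 0.12). None of 19 cytochrome P450 genes passed, and none had an unadjusted p under 0.05 (limma).

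Ddc, Hao2, Agxt2 and Mgll, enzymes of different pathways, also rose. Ddc, which makes dopamine from L-DOPA, was at 5.76 to 18.5 TPM (median 14.2) in nondiabetic and at 23.0 to 47.9 TPM (median 40.9) in Akita libraries. It rose 2.79-fold without overlap (log2 1.46, SE 0.29, adjusted p 0.00426, or 0.0648 without nondiabetic replicates 1 and 2). Hao2, a peroxisomal hydroxy acid oxidase, was at 54.1 to 108 TPM (median 59.9) and 106 to 332 TPM (median 195). Nondiabetic replicate 1 at 108 TPM alone reached the lowest Akita library, replicate 3 at 106 TPM (log2 1.49, SE 0.31, adjusted p 0.00708). Agxt2, a mitochondrial aminotransferase that clears dimethylarginine, was at 17.1 to 32.6 TPM and 30.9 to 100.2 TPM (log2 1.19, adjusted p 0.0121, or 0.0704 without Akita replicate 5). Mgll, which cleaves monoglycerides, was at 22.8 to 113 TPM and 75.9 to 164 TPM (log2 1.21, adjusted p 0.0206, or 0.0924 without Akita replicate 4). None of 24 genes of fatty acid oxidation passed (1 at an unadjusted p under 0.05). Of the 18 genes of lipid synthesis, none passed and 7 had an unadjusted p under 0.05, 3 of them higher and 4 lower. Srebf1, the factor of fatty acid synthesis, was at log2 -0.97 (SE 0.27, adjusted p 0.0962) and Scd1, a desaturase, at log2 -1.43 (SE 0.56).

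Folh1, a brush-border peptidase that trims glutamates from folate, was at 9.41 to 28.7 TPM (median 12.9) in nondiabetic and at 30.9 to 51.9 TPM (median 41.7) in Akita libraries. It rose 2.50-fold without overlap (log2 1.37, SE 0.28, adjusted p 0.00576) and was the 1 of 12 brush-border peptidases that passed. None of 8 genes of the renin-angiotensin system passed, and 4 had an unadjusted p under 0.05, against 10.2% of all tested genes. Agt, angiotensinogen, was at log2 0.81 (SE 0.24), and its receptor Agtr1a at log2 0.63 (SE 0.19). Ren1, renin, was at log2 -1.16 (SE 0.57), and its nondiabetic libraries reached 157 TPM with a median of 3.19 TPM.

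Ctnna2 had the smallest p of all coding genes. It encodes a catenin that joins cadherins to actin and is best known from neurons (GRCm38, chromosome 6, 76881637 to 77979699, minus strand). It was at 1.45 to 6.36 TPM (median 4.90) in nondiabetic and at 13.97 to 30.3 TPM (median 21.8) in Akita libraries. It rose 4.77-fold with a wide gap between the groups (log2 2.07, SE 0.27, adjusted p 5.19e-06). Of 10 tested cadherins and catenins it was the 1 that passed. Ctnna1, the catenin of epithelia, was at log2 -0.22 (SE 0.14) and Cdh16, the kidney cadherin, at log2 -0.18 (SE 0.16).

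The gain at Ctnna2 reached records that lie within it. A further 6 of the 52 higher genes (6330415B21Rik, Gm44433, Gm44286, Gm44435, Gm44235 and Gm44438) are unspliced clones inside the Ctnna2 gene on its strand. Their log2 changes lay between 1.30 and 2.24, and the highest had means of 3.29 and 17.9 TPM. The 60 records that passed therefore stand for 54 when these are counted with Ctnna2. Likewise Gm26588 (log2 1.86) overlaps Mgll on the opposite strand. The labels name a stranded kit, but how strand was used in counting is not given in the sources used here.

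Further genes that rose belong to no list used here and are given singly. Itgb6, the beta-6 integrin chain that activates TGF-beta, was at 19.04 to 50.5 TPM and 55.1 to 139 TPM (log2 1.31, adjusted p 0.0197, or 0.0863 without Akita replicate 1). Pdgfc, a platelet-derived growth factor, was at 5.10 to 9.35 TPM and 9.87 to 15.3 TPM (log2 0.76, adjusted p 0.00477) without overlap. It did not pass when the compared libraries were fitted alone (adjusted p 0.2125) or after removal of mitochondrial rRNA and rescaling (0.247). Nrg1, a ligand of ErbB receptors, was at 30.5 to 67.1 TPM and 65.3 to 118 TPM (log2 0.99, adjusted p 0.0346, or 0.135 without nondiabetic replicate 2). Hs6st2, which sulfates heparan, was at 6.10 to 23.5 TPM and 33.3 to 48.2 TPM (log2 1.49, adjusted p 0.0169). It had its highest p without nondiabetic replicate 2, at 0.0908. Adap1, an Arf GTPase-activating protein, rose 2.14-fold without overlap (10.7 to 23.7 TPM against 28.7 to 46.3 TPM, log2 1.09, SE 0.20, adjusted p 0.00114). After removal of mitochondrial rRNA and rescaling its adjusted p was 0.0631. Fam171b, a membrane protein, was at 0 to 0.537 TPM and 1.08 to 6.03 TPM (log2 1.74, SE 0.27, adjusted p 0.000113). Tbc1d14, a regulator of autophagy, and Fam102b rose 1.76-fold and 1.97-fold, both without overlap. When the compared libraries were fitted alone, their adjusted p were 0.101 and 0.143.

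The smallest p of all belonged to a noncoding record. Gm45011 (GRCm38, chromosome 7, 28226358 to 28228654), an unspliced clone with no coding gene within 39064 bases, was at 0 to 2.29 TPM (median 0.131) in nondiabetic and at 7.43 to 31.2 TPM (median 16.5) in Akita libraries (log2 3.62, SE 0.45, adjusted p 2.28e-06). Gm42047, a long noncoding RNA on chromosome 8, was the most abundant of the noncoding genes that rose, at 61.2 to 200.4 TPM and 498 to 607 TPM (log2 2.19, SE 0.40, adjusted p 0.00145). For both records the groups were far apart. Gm48851, a processed pseudogene, was blank (read as 0 TPM) in all 6 nondiabetic wild-type vehicle libraries and at 0.751 to 5.58 TPM in Akita libraries (log2 2.01, SE 0.44, adjusted p 0.0160). Its nondiabetic means were 0.895 TPM in the knockout on vehicle, and 1.31 (wild type) and 1.17 TPM (knockout) on dapagliflozin. In those groups its log2 change with diabetes was 0.24, -0.23 and 0.02, in that order. The small nucleolar RNA Snord82 ranged from 0 to 264 TPM and 136 to 799 TPM (log2 4.18, SE 0.94, adjusted p 0.0202). Leaving out any of 5 single libraries ended its call, with a p of 0.0772 without nondiabetic replicate 6, and it was at 0.525 when the compared libraries were fitted alone.

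**Figure D3:**
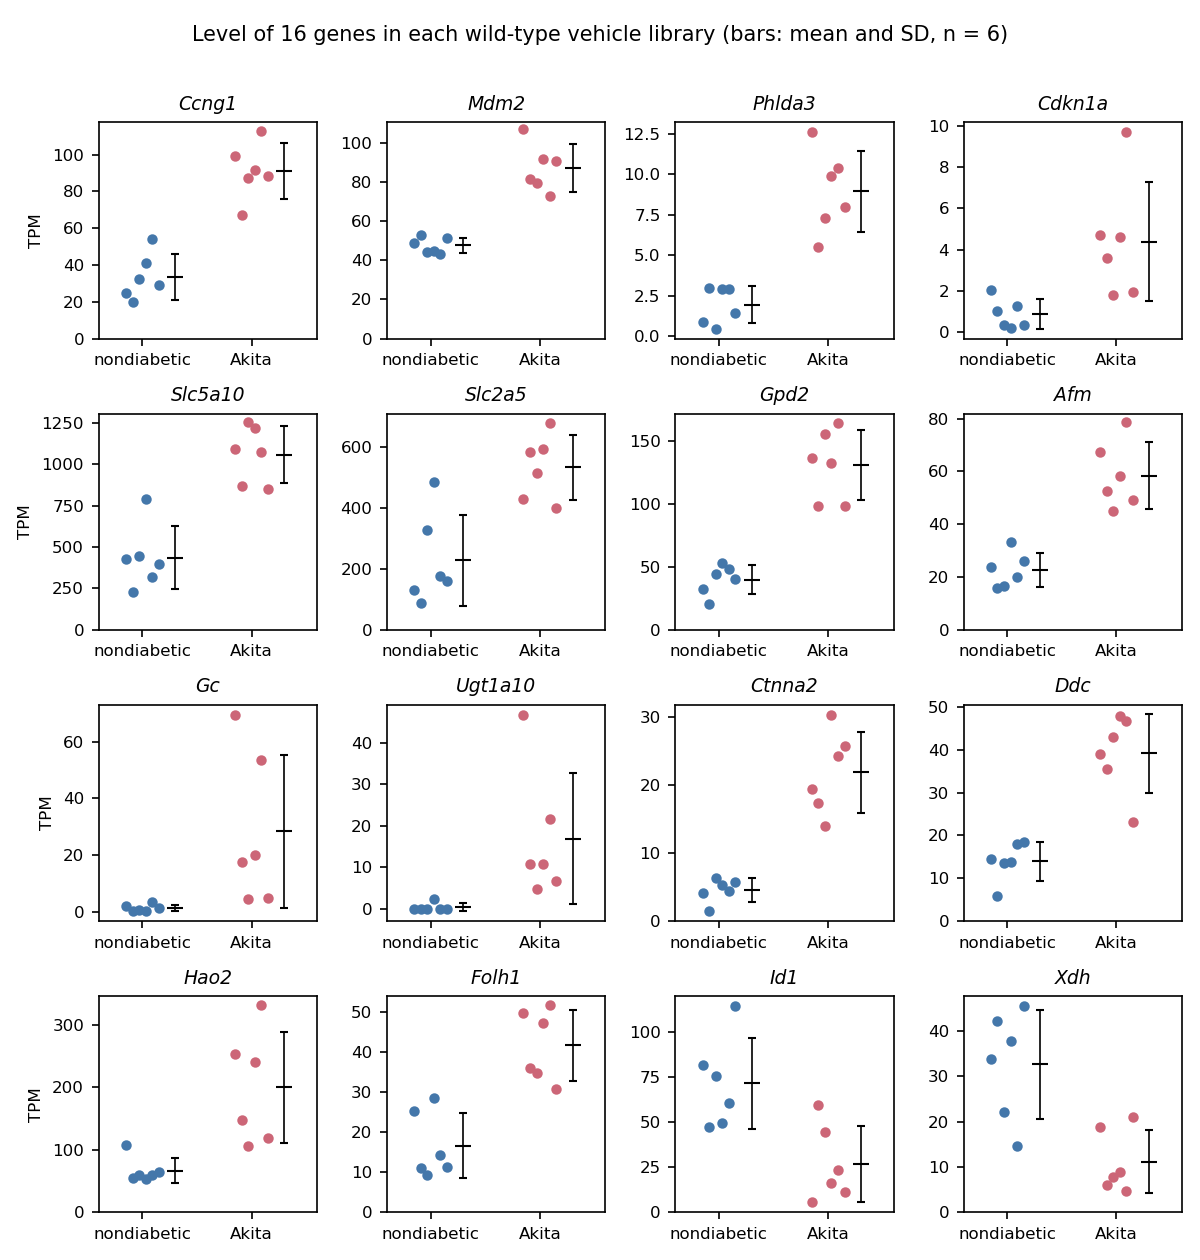
Level in TPM, on a linear axis, of 16 genes in each of the 6 nondiabetic (blue) and 6 Akita (red) wild-type vehicle libraries, with mean and SD. Mdm2, Gpd2, Afm and Ctnna2 had no overlap between groups, whereas Cdkn1a, Slc2a5, Id1 and Xdh overlapped.

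Of the 8 genes that fell, several are known from vessels or immune cells. Vwf, von Willebrand factor of endothelium, was at 2.50 to 10.3 TPM (median 4.14) in nondiabetic and at 0.216 to 1.45 TPM (median 1.07) in Akita libraries (log2 -1.53, SE 0.32, adjusted p 0.00844, or 0.0549 without nondiabetic replicate 2). Its groups did not overlap. The nondiabetic mean of Vwf was 5.10 TPM here and 1.25 TPM in the knockout on vehicle. On dapagliflozin it was 1.15 (wild type) and 2.88 TPM (knockout). Its log2 change with diabetes in those groups was 0.17, 0.15 and -0.30, in that order. The 12 endothelial markers had a median log2 change of -0.31, 11 of 12 below 0, with Pecam1 at log2 -0.13 (SE 0.28) and Cdh5 at log2 -0.32 (SE 0.18). Sema3g, an endothelial semaphorin, was at 4.34 to 21.4 TPM and 1.53 to 3.95 TPM (log2 -1.12, adjusted p 0.0231, or 0.142 without nondiabetic replicate 1). Leaving out any of 4 single libraries ended its call. Its nondiabetic mean was 8.53 TPM here, and 4.91, 3.84 and 4.97 TPM in the same other groups. There its log2 change with diabetes was -0.15, 0.02 and -0.11. Gbp4, an interferon-induced GTPase, was at 5.02 to 41.5 TPM and 2.83 to 4.83 TPM (log2 -1.48, adjusted p 0.0368, or 0.126 without nondiabetic replicate 6). Ptpn22, a phosphatase of lymphocytes, was at 2.81 to 5.88 TPM and 0.105 to 4.31 TPM, with Akita replicate 3 alone inside the nondiabetic range (log2 -1.39, adjusted p 0.0418, or 0.138 without Akita replicate 1). The call of Gbp4 ended when any of 8 single libraries was left out, and so did that of Ptpn22 for any of 8. In bulk samples such as these, fewer cells of a type and less RNA per cell cannot be told apart. The macrophage and dendritic cell markers, given above by their sums, had a median log2 change of -0.57, with 10 of 12 below 0. With the score of other cells as covariate, Vwf and Gbp4 still passed and Sema3g and Ptpn22 did not. Without nondiabetic replicates 1 and 2, the libraries richest in other cells, Vwf (adjusted p 0.103), Sema3g (0.365) and Ptpn22 (0.108) did not pass.

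Interferon-response and MHC class I genes lay below 0 as a list, with 24 of 25 tested members under 0 and a median log2 change of -0.43 against 0.05 over all genes. Gbp4 was the 1 that passed, and 8 had an unadjusted p under 0.05. Oasl2 had log2 -1.13 (SE 0.35, adjusted p 0.162), Xaf1 log2 -1.11 (SE 0.42), and the class I gene H2-D1 log2 0.01 (SE 0.15). The macrophage marker sum was lower in the same libraries. Without nondiabetic replicates 1 and 2 the list's median was -0.45, with 24 of 25 below 0, and with the score of other cells as covariate it was -0.36, with 22 below 0.

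Id1, an inhibitor of basic helix-loop-helix factors induced by BMP, was at 47.2 to 115 TPM (median 68.2) in nondiabetic and at 5.73 to 59.4 TPM (median 20.04) in Akita libraries. Akita replicate 2 alone reached into the nondiabetic range. It fell 2.66-fold (log2 -1.69, SE 0.39, adjusted p 0.0221), with a p of 0.120 without Akita replicate 1. Id3 (log2 -1.004, SE 0.27, adjusted p 0.0776) and the inhibitory Smad6 (means of 6.51 and 2.64 TPM, adjusted p 0.148) did not pass, and Id2 and Id4 were at log2 0.23 and 0.03. Xdh, which makes urate, was at 14.6 to 45.6 TPM and 4.74 to 21.0 TPM (log2 -1.56, SE 0.37, adjusted p 0.0325). It was the 1 of 11 genes of purine breakdown and urate transport that passed, and leaving out any of 8 single libraries ended its call. Gpc1, a heparan sulfate proteoglycan of the cell surface, was at 17.98 to 72.7 TPM and 6.99 to 16.2 TPM without overlap (log2 -1.35, SE 0.27, adjusted p 0.00474). It did not pass when the compared libraries were fitted alone (adjusted p 0.150). Bcas3, a cytoskeletal protein, was at 55.7 to 71.3 TPM and 31.6 to 52.8 TPM (log2 -0.61, adjusted p 0.0495, or 0.148 without Akita replicate 5). Leaving out any of 10 single libraries ended its call.

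Many lists of tubule biology held no gene that passed in limma. Over all tested genes 10.2% had an unadjusted p under 0.05. Of 18 injury and failed-repair markers, 13 were below 0 and 3 had an unadjusted p under 0.05. Without nondiabetic replicates 1 and 2, 9 were below 0, and with the score of other cells as covariate 8 were. Havcr1, the injury marker KIM-1, was at 0.484 to 16.4 TPM and 2.41 to 6.06 TPM. Of 23 organic ion transporters and 18 amino acid transporters, 2 and 1 had an unadjusted p under 0.05. Among 19 genes of sodium, proton, bicarbonate, phosphate and water transport, 3 did. Slc9a8, a sodium-proton exchanger, was the closest at 124 to 335 TPM against 80.2 to 153 TPM (log2 -0.98, SE 0.28, adjusted p 0.106). The 11 cell-cycle genes had a median of 0.57, with 8 above 0 and 5 at an unadjusted p under 0.05. Mki67, a marker of dividing cells, had no overlap at 0.474 to 1.91 TPM against 2.58 to 6.21 TPM (log2 1.29, SE 0.37, adjusted p 0.116). Immediate early genes had a median of -0.40, with 11 of 14 below 0 and 1 at an unadjusted p under 0.05. Lists of hypoxia, unfolded protein response, insulin signalling, ketone handling, the pentose phosphate pathway and proximal tubule transcription factors also held 0 that passed, with 3, 2, 0, 2, 3 and 2 members at an unadjusted p under 0.05.

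**Figure D4:**
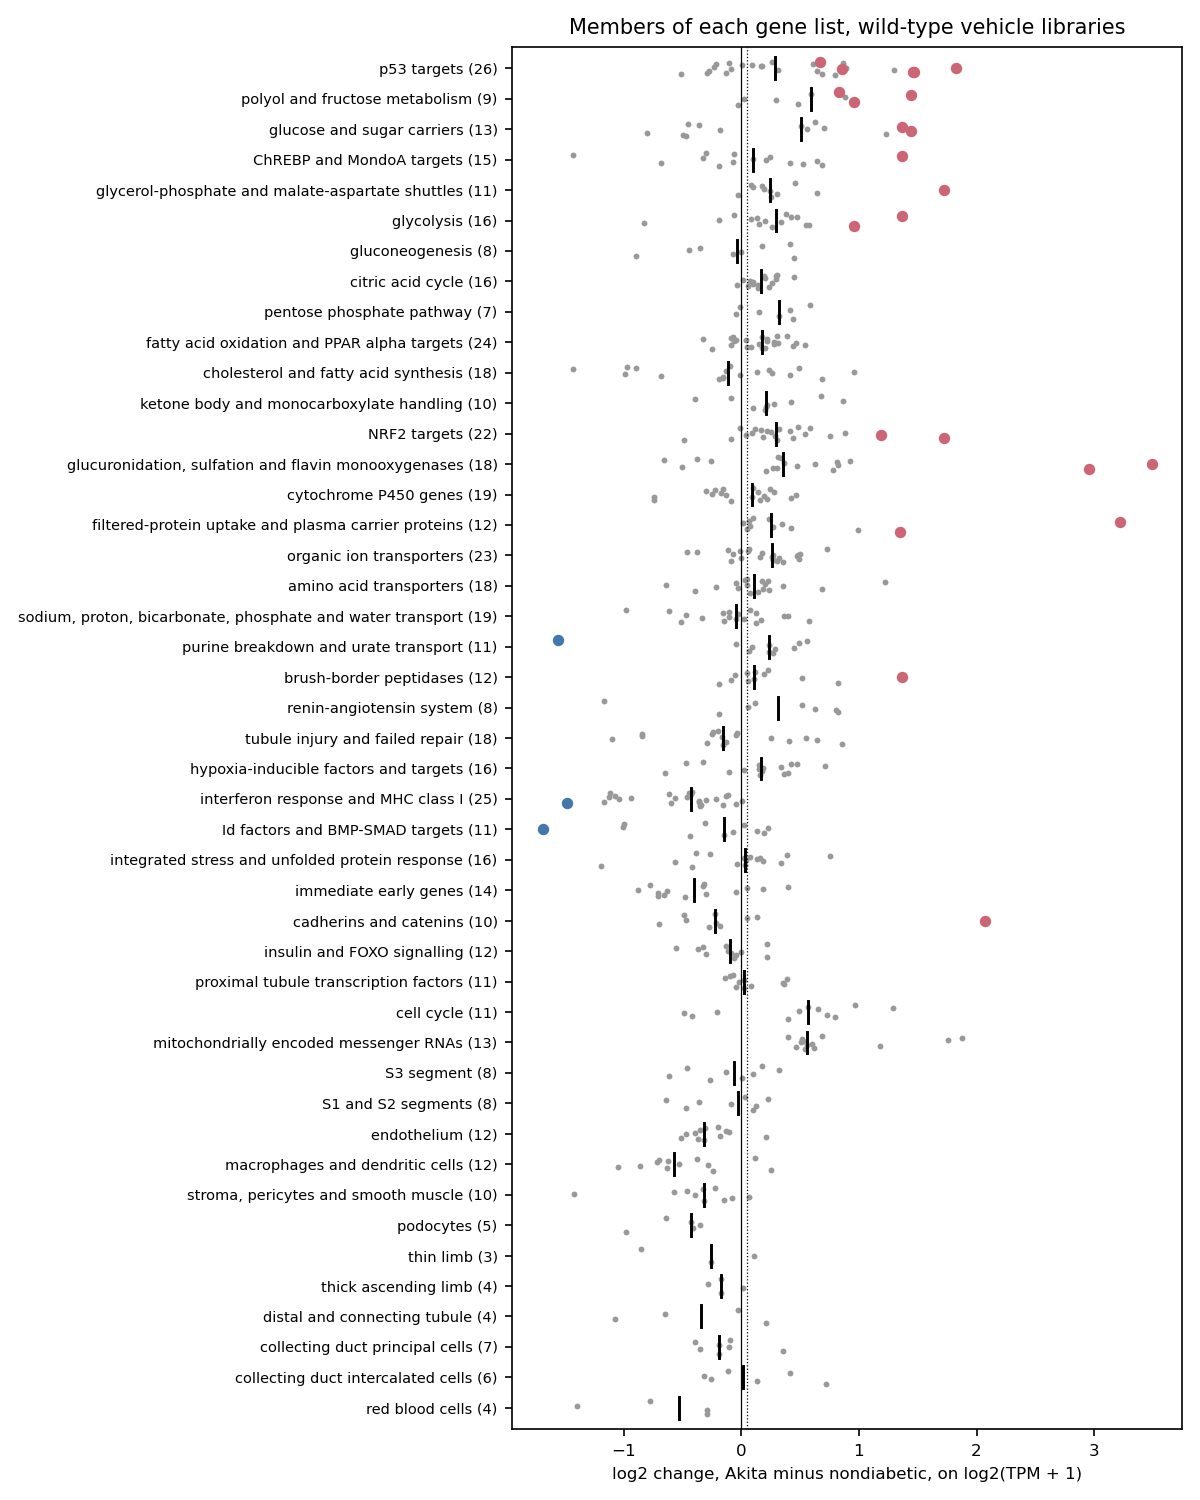
Log2 change with diabetes of every tested member of the gene lists (number tested in parentheses). Red and blue points passed upward and downward, grey points did not, black bars are list medians, and the dotted line is the median of all genes (0.05). The p53, fructose and sugar carrier lists hold 5, 3 and 2 red points, and the lists of other cells hold none.

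The same mutation was compared in 3 further pairs of groups that share no library with the wild-type vehicle pair: Sglt1 knockout on vehicle (6 against 6), wild type on dapagliflozin (5 Akita against 6) and knockout on dapagliflozin (6 against 6). In them limma called 0, 1 and 0 genes (0, 0.00648 and 0%), with 1026, 533 and 790 (6.65, 3.46 and 5.12%) at an unadjusted p under 0.05. The 1 gene was Gm45011, at log2 2.54 (SE 0.47, adjusted p 0.0300) on dapagliflozin. Of the 52 genes higher in wild-type vehicle libraries, 51 were also above 0 in the knockout on vehicle, 49 in the wild type on dapagliflozin and 45 in the knockout on dapagliflozin, where 51.6, 53.2 and 55.4% of all genes were above 0. With the 6 records inside Ctnna2 left out these were 45, 43 and 39 of 46. Of the 52, 25, 18 and 17 had an unadjusted p under 0.05 in that direction. Of the 8 lower genes, 6, 4 and 7 were below 0, where 48.4, 46.8 and 44.6% of all genes were. In each pair 1 of the 8 had an unadjusted p under 0.05 in that direction.

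The changes were smaller in all 3 pairs. The 52 genes had a median log2 change of 1.45 in the pair in which they were called, and of 0.52, 0.54 and 0.41 in the others, and each of the 52 was smaller in each. Genes picked for passing in 1 comparison tend to have their largest estimates there, so this order is a description. Afm was steady in the 3 further pairs at log2 0.65, 0.67 and 0.66 (means of 23.3 and 37.4, 33.8 and 52.2, and 25.3 and 39.2 TPM). Gpd2 was at log2 0.85, 0.33 and 0.41, Slc5a10 at 1.02, 0.35 and 0.27, and Ccng1 at 0.53, 0.42 and 0.07. Cdkn1a was at -0.10, 0.23 and -0.53. For the p53 list the median was 0.15, 0.08 and -0.004.

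Tests of the difference itself called no gene. For diabetes in the wild type against the knockout on vehicle, 0 genes passed in limma and 618 (4.01%) had an unadjusted p under 0.05. For vehicle against dapagliflozin in the wild type these were 0 and 681 (4.42%). The smallest p in each direction for the knockout belonged to Ugt1a10 (log2 3.49 in wild type and 0.28 in knockout, difference 3.21, SE 0.75) and Rcan2, a calcineurin regulator (log2 -1.11 and 0.82, difference -1.93, SE 0.49), each with an adjusted p of 0.999. For dapagliflozin these were Ppp1r14d, a phosphatase inhibitor (log2 -1.49 and 1.17, adjusted p 0.407), and Gm43566 (log2 1.26 and -1.05, adjusted p 0.525). Gpd2 differed by 1.395 between vehicle and dapagliflozin (SE 0.35, adjusted p 0.525). Whether diabetes acts differently without Sglt1 or under dapagliflozin was thus not detectable for single genes. Without nondiabetic wild-type vehicle replicate 1, 2 genes passed for dapagliflozin.

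**Figure D5:**
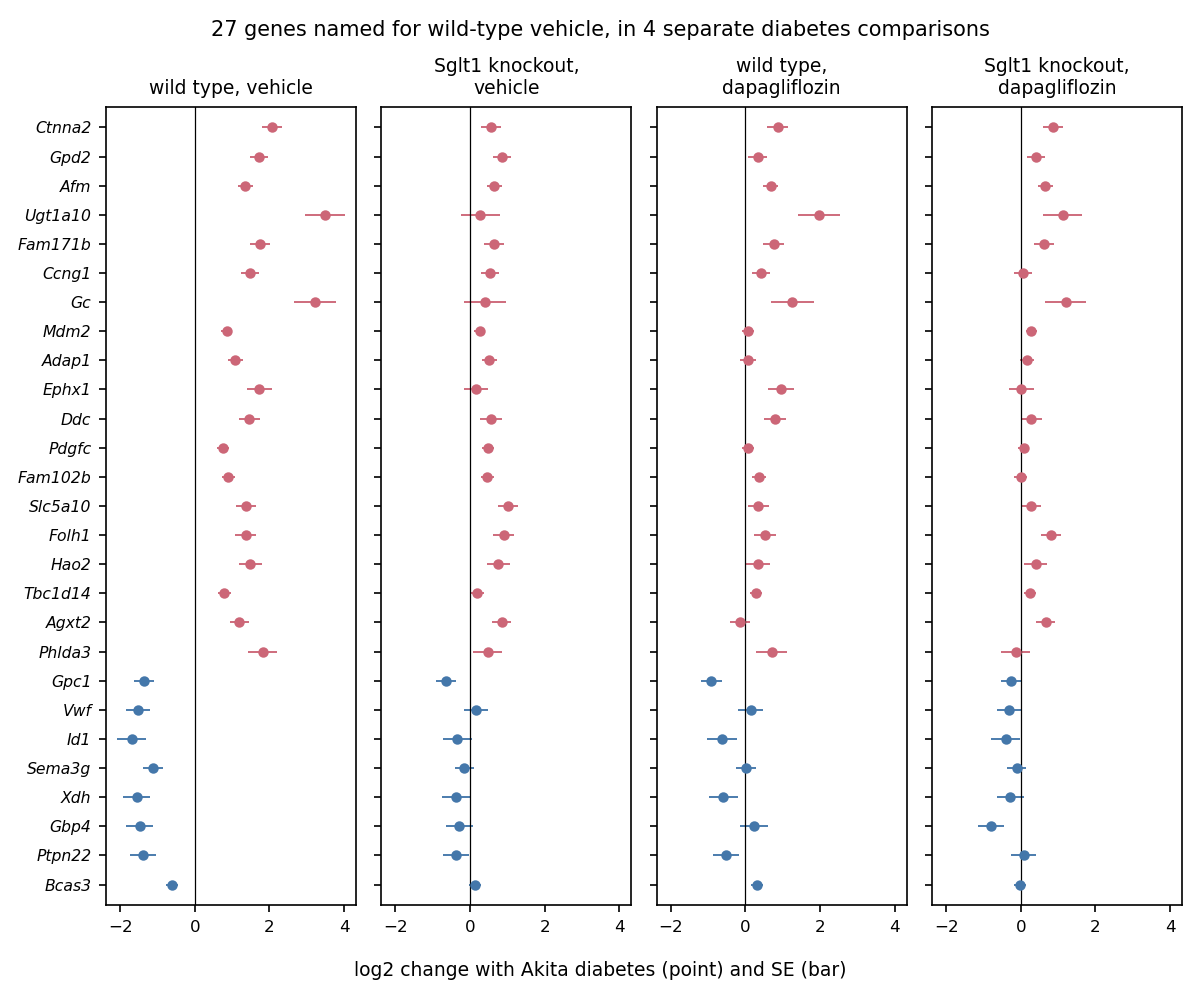
Log2 change with Akita diabetes (points) and SE (bars) of 19 higher (red) and 8 lower (blue) genes in wild-type vehicle libraries and in 3 pairs of groups that share no library with them. Afm lies near 0.66 in all 3 further pairs, and all 27 genes are closer to 0 there than in wild-type vehicle libraries or on the other side of it.

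Wild-type Akita mice on dapagliflozin or semaglutide give levels that can be set beside those on vehicle, though comparisons of these groups share the vehicle libraries. Gpd2 had a mean of 131 ± 27.9 TPM (SD, n = 6) on vehicle, 101.4 TPM on dapagliflozin and 61.8 TPM on semaglutide, against 39.8 ± 11.6 TPM (SD, n = 6) in nondiabetic mice on vehicle and 81.5 TPM in those on dapagliflozin. Ephx1 was at 58.1, 37.2 and 37.1 TPM in the Akita groups and at 17.9 and 17.3 TPM in the nondiabetic ones.

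Genes near Ins2, where the Akita allele lies, were examined as a group. Ins2 itself (chromosome 7, 142678656 to 142743381) is not among the genes analysed here. Within 20 Mb of it 243 genes were tested, and none passed in limma. Of them 27 (11.1%) had an unadjusted p under 0.05, against 10.2% of all genes, and their median log2 change was 0.04 against 0.05.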

How the data were processed

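The deposited table holds 1 column for each of 52 of 54 samples, and its title says that outliers were removed. Its values are log10 TPM, made by the authors before deposit on genome build GRCm38, per the submitters' processing notes. For the aligner, the counting and the annotation, nothing is stated in the sources used here. Per the labels' protocols, libraries were made from laser-cut tubules with a stranded total RNA kit. The log10 was undone, and the 7.02% of cells that are blank were read as 0 TPM. Libraries then summed to 984393 to 2253870 TPM, while the median TPM of tested genes stayed at 13.17 to 13.97. The values were thus scaled again after TPM or count some reads more than once, and which was not tested. The table gives no counts, so read depth and counting error are unknown, and the number of samples limits the precision. Of 19068 gene identifiers 19033 matched a symbol and a position in GENCODE vM21.

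Genes that averaged 1 TPM or more across libraries were tested on log2(TPM + 1) with limma 3.58.1 in R 4.3.3, using 9 group means, a mean-variance trend, robust moderation and Benjamini-Hochberg adjustment over 15424 genes. All groups share 1 estimate of spread. The method was tested on simulated data. Library measures were compared by exact permutation. The text names the 20 higher and the 8 lower genes with the smallest adjusted p and a log2 change of at least 0.5 that are not predicted genes, other genes that passed, up to 4 members of each list, Slc5a1 and Slc5a2. A few genes this rule names are not reported here. Some list members that did not pass, and the predicted genes, were chosen after their values were seen. The compared groups and the gene lists were chosen with earlier results of these data known. Alternatives covered the pseudocount, filter, scaling, covariates, array weights and left-out libraries.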

Additional observations from a re-analysis of the deposited data

Results flagged for a closer look

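For each of 30 genes and 22 library measures, the highest and the lowest library of each group of 6 were set against the rest by Dixon's rule, 104 groups in all, and 13 had a library that stood apart. The rule would flag about 1 in 20 if the values were independent and normal. These groups share the same libraries, so the count is a description. Nondiabetic replicate 1 stood apart in Hao2 (107.9 TPM), Tbc1d14 (67.64 TPM), Sema3g (21.45 TPM), Bcas3 (71.35 TPM) and the stromal marker sum (600.9 TPM). Nondiabetic replicate 2 did in the marker sums of thin limb (46.83 TPM), collecting duct principal cells (173.5 TPM) and red blood cells (137.7 TPM). Nondiabetic replicate 4 stood apart in Ugt1a10 (2.416 TPM, with the others blank and read as 0) and Gpc1 (72.68 TPM), and nondiabetic replicate 6 in Gbp4 (41.53 TPM). Akita replicate 3 stood apart in Ptpn22 (4.307 TPM) and in the marker sum of the distal and connecting tubule (420.7 TPM). All were the highest of their group.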

How the results depend on the processing

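All 60 genes kept their direction under every alternative in which they were tested, and 8 of the 45 named ones passed in every alternative in which they were tested, left-out libraries included. Among these were Ctnna2, Gpd2, Afm, Ccng1 and Gc, and also Ugt1a10 and Fam171b, which were too low to be tested with the filter at a mean of 5 TPM. Of the 45, 20 passed whichever single library was left out. Mgll, Nrg1 and Id1 each lost their call when any of 5 single libraries was left out, Itgb6 with any of 3 and Hs6st2 with any of 2. Fitting the compared libraries alone gave 34 genes (31 higher, 3 lower), and the sum of TPM as covariate gave 29 (28 and 1). The library number, taken from the sample titles, gave 143 (121 and 22) as covariate. It was 54, 58, 67, 75, 83 and 84 in nondiabetic and 1, 30, 40, 76, 8 and 82 in Akita replicates 1 to 6. What the number stands for is not known here, and its part in the differences was not tested otherwise. Removal of mitochondrial rRNA with rescaling to 1 common sum gave 36 (22 and 14). The percent of mitochondrial rRNA as covariate, on the deposited scale, gave 52 (46 and 6). The lower genes numbered 13 with the S1 and S2 score as covariate, 4 with array weights and 5 with a filter at a mean of 5 TPM. Without single libraries the count ran from 39 to 148, higher genes from 36 to 113 and lower genes from 3 to 35. For the difference between vehicle and dapagliflozin it ran from 0 to 2. Slc5a2, at log2 -0.36, was at 0.57 without nondiabetic replicates 1 and 2, the libraries richest in other cells, 0.42 with the score of other cells as covariate and 0.032 with the sum of TPM as covariate. Without single libraries it ran from -0.85 to 0.12. The causes of these shifts were not tested, apart from the fewer genes or samples that a filter or a smaller fit leaves. The counts for gene lists under other settings were chosen after seeing the data. No paired analysis was possible because the labels give no replicate numbers or litters for these samples.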
